A study of Homo sapiens with 18 samples.

Results

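A34, a rexinoid known here by its code name, was compared with ethanol, its vehicle, in U87 cells. U87 is an established line of human glioblastoma, and its labels give the cells as glial with no genetic modification. The comparison took the 3 libraries titled A34 and the 3 titled Ethanol, 6 of the 18 libraries of the study. The A34 cells had received 100 nM of the compound for 24 h, and the ethanol cells the vehicle for the same time. The other 12 libraries, 3 each, came from cells given 100 nM bexarotene, A41, A80 or A98 for 24 h. They shared the model that estimated the spread, and served for the direct comparisons at the end. RNA depleted of ribosomal RNA was sequenced as paired reads. Levels are StringTie TPM, the authors' share of all transcripts in a library, divided by a median-of-ratios factor for each library and called scaled TPM. Nothing in the labels shows whether replicate libraries were separate cultures; the p-values therefore rest on a spread between libraries that may be technical.

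A rexinoid binds the retinoid X receptors (RXR), a class of nuclear receptor found on DNA mostly as one member of a pair. The partner can be a retinoic acid receptor (RAR), a liver X receptor (LXR), a peroxisome proliferator-activated receptor (PPAR), the vitamin D receptor or a thyroid hormone receptor. RAR pairs control genes that clear and store retinoids, LXR pairs control sterol efflux and fatty acid synthesis, and PPAR pairs control fatty acid use. Some pairs respond to an RXR ligand alone, and others respond mainly to the partner's ligand. Such pairs bind direct repeats of a short core motif, and the spacing between the repeats favours one partner over another.

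A34 raised 13 genes and lowered 2 among the 18269 genes tested. These 15 genes are described in turn below, led by CYP26B1 and DHRS3 of retinoid metabolism, SCD and ACSL3 of fatty acid metabolism, ABCA1 of sterol efflux and FAM20C, a secretory pathway kinase. RefSeq promoter windows on GRCh38.p14 were found for 12 of the 15, and the 250 bases before the start are shown for the genes of the retinoid and lipid groups and for ID1, since these receptors act at such sequence. Capitals mark the nuclear receptor core motif AGGTCA, its variant GGGTCA, the variant AGTTCA and the further variant GGTTCA, on either strand; everything else is in lower case. Each line runs 5′ to 3′ on the gene's own strand. Starts here are those of RefSeq and can differ from the gene coordinates given below. The windows of CYP26B1, ACSL3 and ID1 reach into the gene as placed by those coordinates.
ABCA1, chr9:104928156-104928405, minus strand: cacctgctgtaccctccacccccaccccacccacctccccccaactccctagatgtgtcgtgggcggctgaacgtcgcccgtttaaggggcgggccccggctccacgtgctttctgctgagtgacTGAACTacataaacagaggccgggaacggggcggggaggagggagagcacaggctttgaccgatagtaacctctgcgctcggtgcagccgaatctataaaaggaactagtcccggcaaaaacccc
SCD, chr10:100346983-100347232, plus strand: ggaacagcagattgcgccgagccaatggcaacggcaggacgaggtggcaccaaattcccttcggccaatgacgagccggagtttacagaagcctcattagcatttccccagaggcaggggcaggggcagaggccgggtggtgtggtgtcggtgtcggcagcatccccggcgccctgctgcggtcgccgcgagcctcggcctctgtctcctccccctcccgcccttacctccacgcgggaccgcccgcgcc
ACSL3, chr2:222860786-222861035, plus strand: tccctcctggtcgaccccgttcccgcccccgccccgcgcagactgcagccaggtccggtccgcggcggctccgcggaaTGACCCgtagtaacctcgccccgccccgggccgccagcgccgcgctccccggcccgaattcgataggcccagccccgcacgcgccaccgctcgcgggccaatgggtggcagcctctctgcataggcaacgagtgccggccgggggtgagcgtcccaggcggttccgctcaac
CYP26B1, chr2:72147863-72148112, minus strand: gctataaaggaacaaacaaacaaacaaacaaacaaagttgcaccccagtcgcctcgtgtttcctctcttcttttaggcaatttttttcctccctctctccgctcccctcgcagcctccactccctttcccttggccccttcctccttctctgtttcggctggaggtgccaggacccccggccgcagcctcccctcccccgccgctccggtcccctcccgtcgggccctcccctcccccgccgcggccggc
DHRS3, first window, chr1:12618211-12618460, minus strand: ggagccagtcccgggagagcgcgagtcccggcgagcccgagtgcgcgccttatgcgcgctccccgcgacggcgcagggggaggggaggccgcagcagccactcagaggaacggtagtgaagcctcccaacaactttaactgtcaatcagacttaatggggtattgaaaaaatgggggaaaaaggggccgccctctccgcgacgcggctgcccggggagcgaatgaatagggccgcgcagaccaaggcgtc
DHRS3, second window, chr1:12616790-12617039, minus strand: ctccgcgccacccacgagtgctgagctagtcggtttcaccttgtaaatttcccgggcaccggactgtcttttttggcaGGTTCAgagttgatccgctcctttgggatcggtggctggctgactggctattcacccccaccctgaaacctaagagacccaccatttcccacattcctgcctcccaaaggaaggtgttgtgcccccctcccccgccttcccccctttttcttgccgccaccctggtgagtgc
DHRS3, the third window, chr1:12596614-12596863, minus strand: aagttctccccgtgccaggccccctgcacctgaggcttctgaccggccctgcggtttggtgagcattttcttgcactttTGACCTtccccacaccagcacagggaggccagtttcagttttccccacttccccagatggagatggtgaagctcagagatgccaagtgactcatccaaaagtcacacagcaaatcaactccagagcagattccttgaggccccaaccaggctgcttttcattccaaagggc
ID1, chr20:31605039-31605288, plus strand: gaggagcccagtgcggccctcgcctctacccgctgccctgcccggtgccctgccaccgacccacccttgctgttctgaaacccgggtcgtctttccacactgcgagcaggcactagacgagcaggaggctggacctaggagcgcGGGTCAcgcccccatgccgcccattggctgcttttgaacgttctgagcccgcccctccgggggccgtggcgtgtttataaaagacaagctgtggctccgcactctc

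ABCA1 held a core motif read as TGAACT 125 bases before its start. ACSL3 held TGACCC 172 bases before its start, and ID1 held GGGTCA 106 bases before. Of the 3 DHRS3 windows the first held none, the second held GGTTCA 172 bases before its start and the third held TGACCT, which is AGGTCA on the other strand, 171 bases before its start. The SCD and CYP26B1 windows held no match. In all, 5 of the 12 genes with a window had at least 1 core motif (ABCA1, ACSL3, DHRS3, ID1 and SEC14L2), and 7 had none. Counted by window, 6 of their 15 windows had a match, against 33.8% of all 35116 RefSeq windows of the same length. Direct repeats of these motifs spaced by 1 to 5 bases were found in 0 of the 12 genes, and in between 0.0313% and 0.0968% of all windows for any one spacing. A match is a description of the letters only, and direct repeats built from other letters were not searched. The 0 therefore does not show that these windows lack such repeats. The ABCA1 window, for example, holds the stretch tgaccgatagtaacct, whose letters fall outside the motifs searched. ADAMTS1, ECH1 and HMGA2 had no entry.

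Libraries stood apart in ways that touch these results. Ribosomal RNA took 35.5% of TPM in ethanol replicate 2, against 0.407% and 4.44% in the other ethanol libraries and 0.593% to 1.11% in the A34 libraries; the scaling divides this out, and results without that library stand beside those they change. In the other groups it took 56.1% in A41 replicate 2 and 44.9% in bexarotene replicate 1. These 2 and ethanol replicate 2 are the libraries rich in ribosomal RNA, and all 3 entered the shared spread. With all 3 left out, 8 of the 15 called genes stayed past the threshold, as given at the end. A34 replicate 1 was the highest A34 library for 10 of the 13 raised genes, and A34 replicate 3 the lowest for 8 of them. Depth, read from the ratio of the Coverage and FPKM columns, was 1.40, 1.62 and 2.28 aligned gigabases for A34 and 1.81, 2.15 and 3.33 for ethanol.

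The glial label was met by some markers and not by others. Vimentin (VIM) stood at 4070, 4469 and 4466 scaled TPM with ethanol and 4130, 3972 and 4136 with A34, and the adhesion receptor CD44 between 1007 and 1223 in all 6 libraries. Of 17 glial and stem cell markers, 9 stayed under 1 scaled TPM in all 6 libraries, among them the astroglial filament gene GFAP, at 0.21 to 0.999, and the stem cell factor SOX2, at 0.0203 or less; S100B was listed at 0 in each. Other genes of that list were expressed, with the secreted chaperone CLU at 166 to 218, the gap junction gene GJA1 at 63.6 to 73.8 and the glutamate transporter SLC1A3 at 19.3 to 26.1. The leukocyte gene PTPRC was at 0.174 or less, the endothelial gene CDH5 at 0.201 or less, and MOG of oligodendrocytes was listed at 0 in all 6. Those lists too held expressed genes, such as CSF1R at 10.9 to 16.4, KDR at 1.45 to 2.84 and CNP at 25.3 to 32.1. In bulk RNA, fewer cells of a type and less RNA per cell cannot be told apart.

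The call rule was a limma test on log2(scaled TPM + 1), with an adjusted p under 0.05 by Benjamini-Hochberg over all genes tested. The 13 higher genes were 0.0712% of those tested, the 2 lower genes 0.0109% and all 15 together 0.0821%. At an unadjusted p under 0.05, 1077 genes were higher (5.9%) and 878 lower (4.81%). The 3 A34 libraries lay above the 3 ethanol libraries for 1502 genes (8.22%) and below them for 1527 (8.36%), and all 15 called genes were among these. The plot of the called genes by library shows the gap between the groups for each. The spread came from all 18 libraries; with only the 6 libraries of the comparison in the fit, none of the 15 passed, and the 1 gene that did was the pseudogene TUBB8P9, named here after its values were seen. With TPM as deposited, not scaled, no gene passed.

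**Figure D1:**
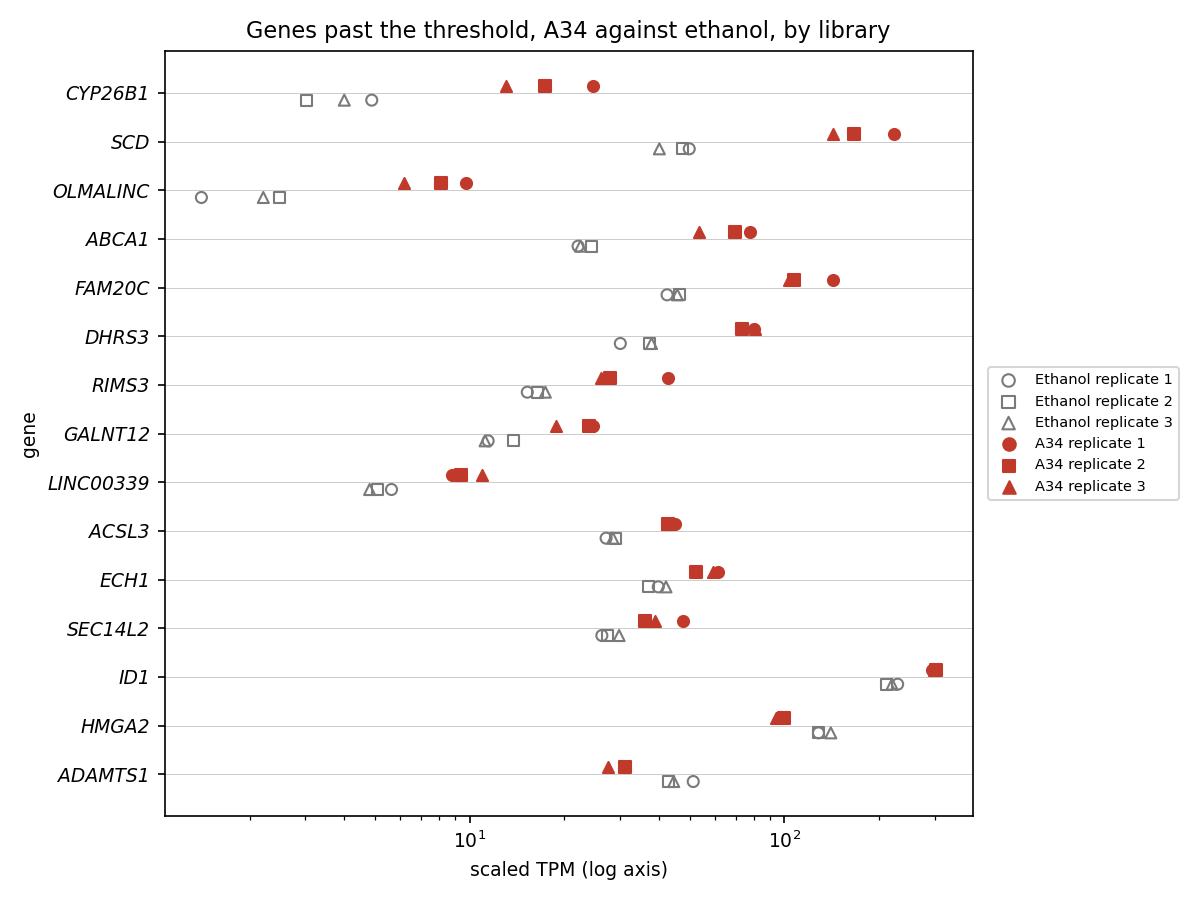
Scaled TPM of the 15 genes past the threshold on a log axis, 1 row per gene, with open grey symbols for the 3 ethanol libraries, filled red symbols for the 3 A34 libraries and 1 symbol shape per replicate number. The groups are apart in every row, with CYP26B1 and SCD the widest and HMGA2 and ADAMTS1 lower with A34.

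CYP26B1 and DHRS3, 2 of the 11 tested genes of retinoid metabolism, rose with A34. CYP26B1 (chr2:72129238-72148038, minus strand), the enzyme that oxidises retinoic acid for removal, stood at 4.89, 3.03 and 4.0 scaled TPM with ethanol and at 24.7, 17.4 and 13.1 with A34. DHRS3 (chr1:12567910-12618210, minus strand), which reduces retinal back to retinol, stood at 30.1, 37.2 and 37.8 with ethanol and at 80.1, 73.4 and 80.4 with A34. The A34 libraries of CYP26B1 were spread, with replicate 1 the highest, while those of DHRS3 lay close together. The log2 fold change of CYP26B1 was 1.94 (95% interval 1.52 to 2.36, limma adjusted p = 0.000184), and that of DHRS3 was 1.14 (0.95 to 1.32, adjusted p = 1.52e-05). Both calls held without each of the 6 libraries in turn.

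Other RAR targets did not pass. STRA6, the membrane receptor that takes up retinol, was at 0.877, 0.315 and 0.743 scaled TPM with ethanol and 2.40, 2.54 and 1.32 with A34, a log2 difference of 0.90 (limma adjusted p = 0.179). TGM2, tissue transglutaminase, was at 168, 160 and 166 with ethanol and 232, 205 and 200 with A34, a log2 difference of 0.36 (limma adjusted p = 0.162). For both genes the groups did not overlap. RARB, a receptor gene that retinoic acid induces in many cells, was at 5.14, 5.13 and 5.09 with ethanol and 8.68, 5.40 and 6.05 with A34 (limma adjusted p = 0.627). Of 14 tested genes on the RAR target list, 2 rose (CYP26B1 and DHRS3), 11 had a fold change above 0 and the median log2 fold change was 0.34. Over all genes tested, 0.0712% were called higher, 49.4% were above 0, 50.6% below, and the median was -0.0023. CYP26A1, the other well known retinoic acid hydroxylase of this list, was under the level for testing. On the retinoid metabolism list 7 of 11 were above 0 and the median was 0.10. There the retinol dehydrogenase RDH10 had a log2 difference of -0.42 and its relative RDH11 of 0.38, neither of them past the threshold (limma adjusted p = 0.234 and 0.162).

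The gene for sterol efflux and the desaturase on the LXR list rose. ABCA1 (chr9:104781006-104928155, minus strand), the transporter that hands cholesterol to apolipoproteins, was at 22.1, 24.3 and 22.5 scaled TPM with ethanol and 77.5, 69.6 and 53.5 with A34. SCD (chr10:100347233-100364826, plus strand), which makes monounsaturated from saturated fatty acids, was at 49.9, 47.6 and 40.1 with ethanol and 223, 166 and 143 with A34. Every A34 library was above every ethanol library for both genes, with A34 replicate 1 the highest. The log2 fold changes were 1.49 (1.23 to 1.74) for ABCA1 and 1.91 (1.58 to 2.25) for SCD, both with a limma adjusted p of 1.70e-05, and both calls held without each library in turn. OLMALINC (chr10:100373099-100454043, plus strand), a long noncoding RNA gene that begins past the end of SCD on the same strand, was at 1.41, 2.48 and 2.21 with ethanol and 9.74, 8.14 and 6.20 with A34. Its log2 fold change was 1.57 (1.2 to 1.95, limma adjusted p = 0.000555), and this call too held without each library.

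SREBF1, the transcription factor of fatty acid synthesis and itself an LXR target, was at 6.47, 7.48 and 6.66 scaled TPM with ethanol and 23.4, 16.1 and 11.3 with A34. Its groups were apart, but the A34 libraries spanned a wide range, and the log2 difference of 1.13 (0.69 to 1.58) did not pass (limma adjusted p = 0.0652). LPCAT3, an LXR target that remodels phospholipids, was at 12.4, 12.1 and 12.6 with ethanol and 15.3, 13.7 and 14.8 with A34 (limma adjusted p = 0.501). Of 12 tested LXR targets, 2 rose (ABCA1 and SCD), 9 were above 0 and 6 had groups apart and higher. Over all genes tested these shares were 0.0712%, 49.4% and 8.22%. The median log2 fold change of the list was 0.25. APOE and MYLIP, further LXR targets, were under the level for testing.

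Beyond SCD, the fatty acid synthesis list held 1 more call, ACSL3, which activates long chain fatty acids as acyl-CoA. ACSL3 (chr2:222860942-222944639, plus strand) was at 27.1, 29 and 28.5 scaled TPM with ethanol and 44.9, 42.8 and 42.3 with A34, a log2 fold change of 0.60 (0.45 to 0.75, limma adjusted p = 0.000952). Its libraries lay closely within each group, and the call held without each library in turn, but was lost with ribosomal RNA and mitochondrial genes left out of TPM (limma adjusted p = 0.192). Fatty acid synthase (FASN), at 27.3, 21.8 and 22.2 with ethanol and 23.6, 23.4 and 17.6 with A34, and ACACA, which makes malonyl-CoA, with a log2 difference of 0.13, did not pass. Of 14 tested members of the list, 2 were called higher and 9 were above 0, against 0.0712% and 49.4% of all genes. The list's median log2 fold change was 0.10. Among 10 tested acyl-CoA synthetase genes, a list drawn up with earlier results known, ACSL3 was the 1 that rose. ACSL1 and ACSL4 had log2 differences of -0.05 and 0.10. None of 24 tested cholesterol synthesis and uptake genes passed the limma test, and their median was 0.08. At an unadjusted limma p under 0.05, 6 were higher and 0 lower, against 5.9% and 4.81% of all genes.

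One gene of fatty acid oxidation rose. ECH1 (chr19:38815422-38831841, minus strand), an isomerase for unsaturated fatty acids and a PPAR target, was at 39.7, 36.9 and 42.1 scaled TPM with ethanol and 61.4, 52.2 and 59.2 with A34. Its log2 fold change was 0.53 (0.36 to 0.70, limma adjusted p = 0.0131), and the call was lost without ethanol replicate 1, ethanol replicate 2, A34 replicate 1 or A34 replicate 3 (adjusted p up to 0.0997). ECH1 was the 1 gene called among 20 tested fatty acid oxidation genes, whose median was -0.02, and among 16 tested PPAR targets, whose median was 0.07. Over all genes tested, 0.0712% were called higher. CPT1A, the entry step of oxidation in mitochondria, was at 42.8, 49.6 and 54.1 with ethanol and 35.3, 49.2 and 44.3 with A34, and PDK4, which restrains glucose oxidation, was at 2.57 or less in all 6 libraries. SEC14L2 (chr22:30396941-30425303, plus strand), which binds tocopherol and other lipids, rose from 26.3, 27.4 and 29.8 to 47.6, 36.0 and 38.9. Its log2 fold change was 0.53 (0.33 to 0.72, limma adjusted p = 0.0456), and the call was kept without A34 replicate 2 but lost without any other single library (adjusted p up to 0.23).

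FAM20C and GALNT12, enzymes that modify secreted proteins, rose as single genes of their families. Family lists in this text were drawn up with earlier results of these data known, so a call within its own family adds no support. FAM20C (chr7:192571-260772, plus strand), the kinase that phosphorylates secreted proteins in the Golgi, was at 42.4, 46.4 and 45.7 scaled TPM with ethanol and 143, 107 and 103 with A34. Its log2 fold change was 1.36 (1.08 to 1.64, limma adjusted p = 0.000106), and the call held without each library in turn. It was the 1 gene called among 7 tested secretory kinase genes; its relative FAM20B, which phosphorylates xylose in proteoglycans, had a log2 difference of 0.03. GALNT12 (chr9:98807670-98850081, plus strand), which starts mucin-type sugar chains, was at 11.4, 13.8 and 11.2 with ethanol and 24.7, 23.9 and 18.8 with A34. Its log2 fold change was 0.83 (0.55 to 1.12, limma adjusted p = 0.0224), lost without ethanol replicate 1, ethanol replicate 3, A34 replicate 1 or A34 replicate 2 (adjusted p up to 0.149). None of the other 11 tested GALNT genes passed, and the family's median was -0.04.

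RIMS3 (chr1:40620680-40665682, minus strand), a member of the presynaptic RIM family, was at 15.2, 16.4 and 17.4 scaled TPM with ethanol and 42.7, 28 and 26.1 with A34. A34 replicate 1 was far above the other A34 libraries. The log2 fold change of RIMS3 was 0.91 (0.57 to 1.24, limma adjusted p = 0.0456), and the call was kept without A34 replicate 3 but lost without any other single library (adjusted p up to 0.23). It was the 1 gene called among 8 tested genes of presynaptic release, a list drawn up with earlier results known. ID1 (chr20:31605283-31606515, plus strand), an inhibitor of basic helix-loop-helix factors, was at 229, 211 and 220 with ethanol and 294, 303 and 298 with A34. Its change was small and its libraries close, with a log2 fold change of 0.44 (0.30 to 0.57, limma adjusted p = 0.00969), lost without ethanol replicate 2, ethanol replicate 3 or A34 replicate 2 (adjusted p up to 0.0791). LINC00339 (chr1:22024558-22031223, plus strand), a long noncoding RNA gene, was at 5.65, 5.10 and 4.81 with ethanol and 8.80, 9.39 and 11 with A34. Its log2 fold change was 0.79 (0.55 to 1.04, limma adjusted p = 0.00969), lost without ethanol replicate 2 or ethanol replicate 3 (adjusted p up to 0.0894).

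The 2 lowered genes were a matrix protease and a chromatin protein. ADAMTS1 (chr21:26835755-26845409, minus strand), which cleaves proteoglycans of the matrix, was at 51.3, 42.8 and 44.5 scaled TPM with ethanol and 31.3, 31.2 and 27.5 with A34. HMGA2 (chr12:65824460-65966291, plus strand), an architectural DNA-binding protein of embryonic and tumour cells, was at 128, 128 and 140 with ethanol and 98.7, 99.8 and 94.3 with A34. A34 replicate 3 was the lowest library for both. The log2 fold changes were -0.61 (-0.83 to -0.38) for ADAMTS1 and -0.44 (-0.60 to -0.27) for HMGA2, each with a limma adjusted p of 0.0456. Both calls were lost without any 1 of the 6 libraries, with adjusted p from 0.0755 to 0.23, while the fold changes stayed below 0. ADAMTS1 was the 1 gene called among 10 tested ADAMTS genes, and HMGA2 the 1 among 11 tested genes around HMGA2 and its oncofetal partners. Both lists were drawn up with earlier results known. HMGA1, the paralog of HMGA2, had a log2 difference of 0.06.

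**Figure D2:**
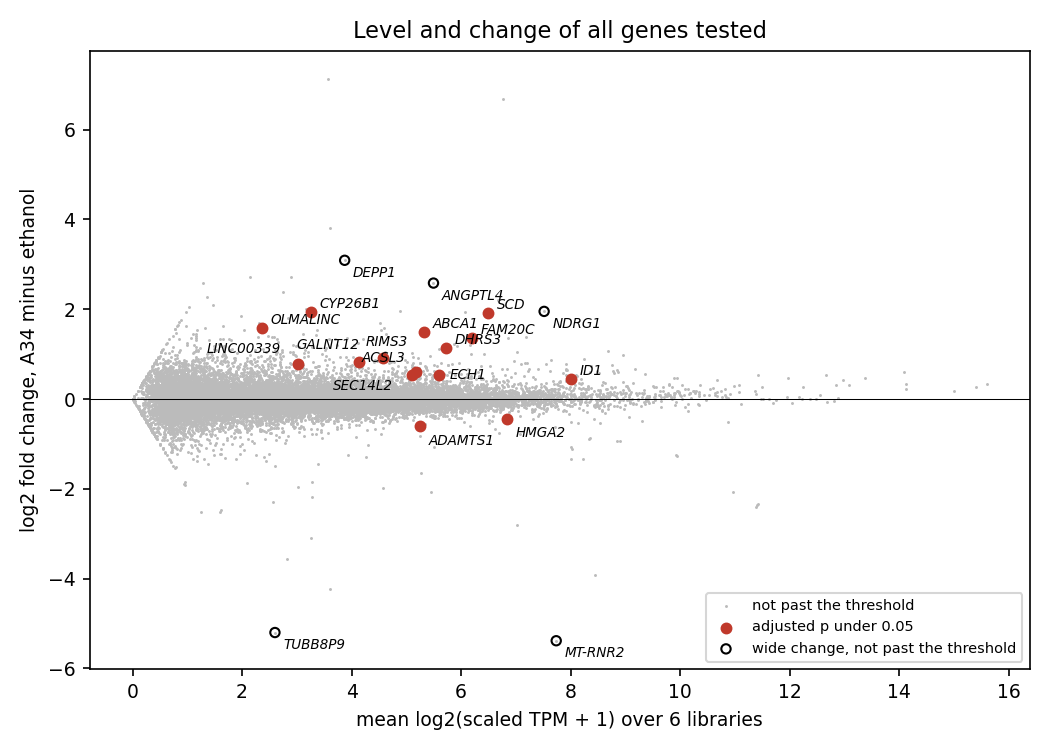
Log2 fold change of A34 minus ethanol against the mean log2(scaled TPM + 1) over the 6 libraries for the 18269 genes tested, with the 15 genes past the threshold in red and 5 genes of wide change that did not pass ringed in black. The called genes span low to high levels, from OLMALINC to ID1, and DEPP1, ANGPTL4 and NDRG1 lie as high as or above them without passing.

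Size of change and call were not the same thing. Of 151 genes with a log2 fold change above 1, 6 passed, and of 101 genes below -1, 0 passed. The plot of level and change sets the called genes beside the rest.

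The receptors themselves did not pass. RXRA, the main target of a rexinoid together with RXRB, was at 5.88, 5.13 and 6.29 scaled TPM with ethanol and 5.07, 5.91 and 5.69 with A34, and RXRB was at 9.65, 7.46 and 9.56 with ethanol and 7.05, 9.90 and 8.80 with A34. RXRG was under the level for testing. RARA was at 15.3, 13.8 and 15.2 with ethanol and 27.0, 21.4 and 14.8 with A34, so replicates 1 and 2 were higher and replicate 3 lay among the ethanol libraries (log2 difference 0.45, limma adjusted p = 0.416). RARG lay between 25.3 and 30.2 in all 6 libraries, and the LXR genes NR1H2 and NR1H3 between 34.6 and 41.9 and between 4.76 and 7.16. Of 22 tested nuclear receptor genes, 0 passed the limma test, and the median log2 fold change was 0.03. At an unadjusted limma p under 0.05, 1 was higher and 2 lower, against 5.9% and 4.81% of all genes.

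**Figure D3:**
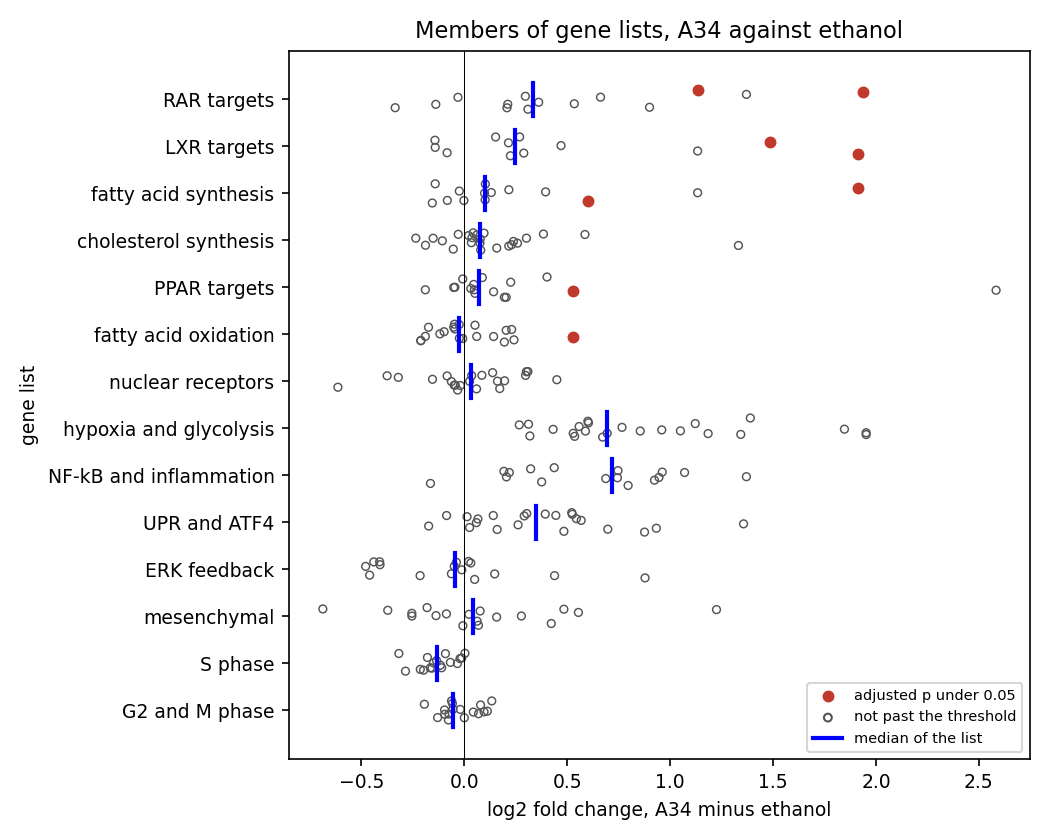
Log2 fold change of A34 minus ethanol for each tested member of 14 gene lists, 1 row per list, with filled red points for genes past the threshold, open points for the others and a blue bar at the list's median. The hypoxia, NF-kB and ATF4 lists lie to the right without a single call, while 6 of the 15 called genes lie on the RAR, LXR and fatty acid lists.

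Genes of hypoxia and glycolysis gave fold changes above 0 throughout, none past the threshold, and differed widely between the A34 libraries. NDRG1, a hypoxia-induced gene, was at 97.5, 105 and 76.2 scaled TPM with ethanol and 805, 308 and 187 with A34. VEGFA, the angiogenic growth factor, was at 358, 316 and 323 with ethanol and 735, 552 and 444 with A34. CA9, a carbonic anhydrase that hypoxia induces, was at 65.1, 44.1 and 30.7 with ethanol and 211, 96.0 and 81.7 with A34. In all 3 genes the groups were apart and A34 replicate 1 was far the highest. The log2 differences were 1.95, 0.77 and 1.39, with limma adjusted p of 0.225, 0.216 and 0.275. None of the 23 tested members of the list passed the limma test. Of these, 20 were higher at an unadjusted p under 0.05, all 23 were above 0 and 21 had groups apart and higher. Over all genes tested these shares were 5.9%, 49.4% and 8.22%. The median log2 fold change of the list was 0.69, and 0.50 without A34 replicate 1. A34 replicate 1 was the highest library in 23 of the 23 genes and replicate 3 the lowest A34 library in 22.

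The A34 libraries took the same order on other lists. Averaged over the hypoxia list, the libraries A34 1, 2 and 3 stood 1.56, 0.74 and 0.38 above the ethanol mean on the log2 scale, while the ethanol libraries stood at 0.12, 0.03 and -0.15. The library numbered 1 was also the highest of its group for this list with bexarotene (0.67), A41 (0.80), A80 (1.54) and A98 (0.82). These numbers are those of the titles, and the file numbers differ in some groups. A98 1, for example, has file number 2. Whether anything tied to the replicate number acted on these genes was not tested. On the NF-kB and inflammation list, 0 of 16 tested genes passed the limma test. Of these, 8 were higher at an unadjusted p under 0.05, 15 were above 0 and 9 had groups apart and higher. Over all genes tested these shares were 5.9%, 49.4% and 8.22%. The list's median was 0.72, and 0.42 without A34 replicate 1. IL6, an inflammatory cytokine, was at 26.9, 17.4 and 19.1 scaled TPM with ethanol and 85.2, 38.7 and 20.6 with A34, so its groups overlapped. PTGES, which makes prostaglandin E2, was at 34.1, 25.9 and 26.5 with ethanol and 51.1, 46.5 and 42.9 with A34 (log2 difference 0.69, limma adjusted p = 0.162). The list of the unfolded protein and ATF4 responses had 0 of 22 passing and a median of 0.35. At an unadjusted limma p under 0.05, 12 of its genes were higher, against 5.9% of all genes. ATF4, the transcription factor of that response, was at 109, 122 and 119 with ethanol and 187, 178 and 142 with A34 (log2 difference 0.52, limma adjusted p = 0.244).

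**Figure D4:**
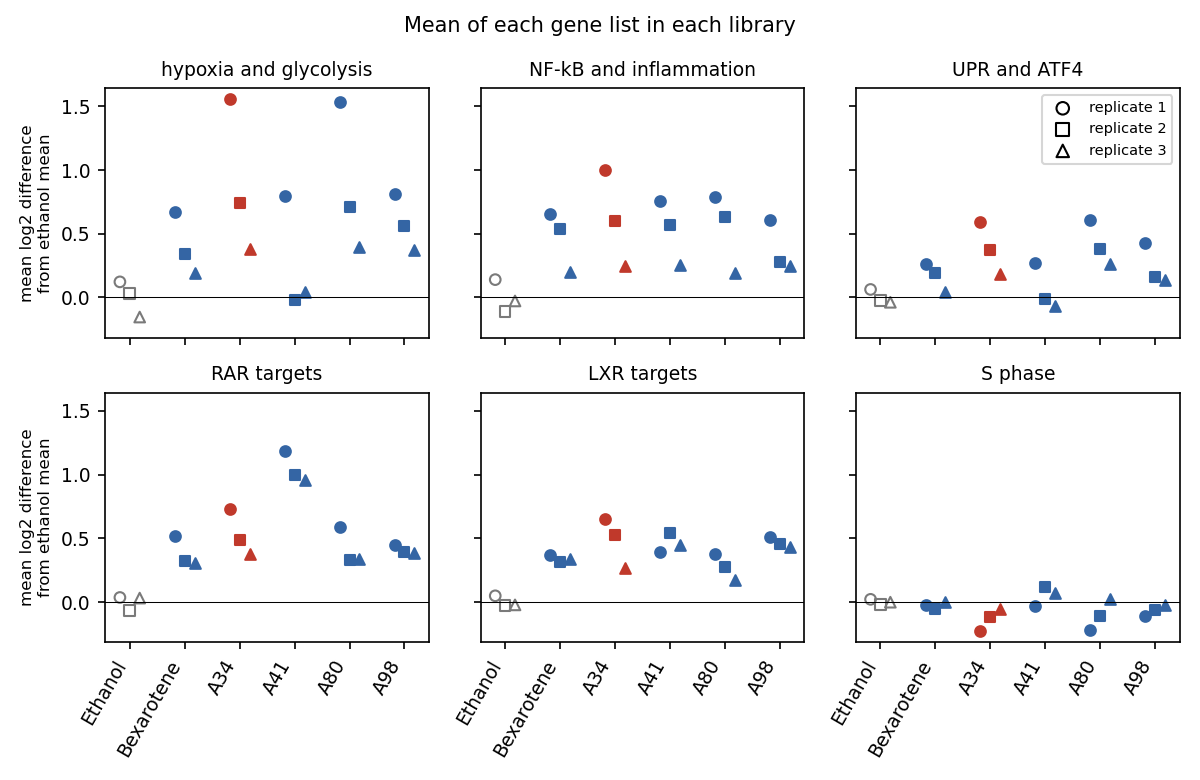
Mean log2 difference from the ethanol mean over the tested members of 6 gene lists, 1 panel per list, for each of the 18 libraries by group, with 1 symbol per replicate number, A34 in red, ethanol open and the other rexinoids in blue. The hypoxia panel spans 0.38 to 1.56 over the A34 libraries, a wider span than the 0.37 to 0.73 of the RAR panel.

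Several single genes had wide differences that did not pass, with the A34 libraries in the same order. DEPP1, a stress-induced gene of autophagy, was at 4.12, 6.71 and 2.21 scaled TPM with ethanol and 132, 42.1 and 12.7 with A34. ANGPTL4, a PPAR and hypoxia target that inhibits lipoprotein lipase, was at 22.8, 17.8 and 13 with ethanol and 261, 106 and 47.0 with A34. F3, which codes for tissue factor, was at 37.2, 34.6 and 28.3 with ethanol and 327, 131 and 51.4 with A34. Groups were apart for each, and A34 replicate 1 exceeded A34 replicate 3 several times over. Their log2 differences were 3.09, 2.58 and 1.94, with limma adjusted p of 0.237, 0.179 and 0.338. TUBB8P9, a tubulin pseudogene, was at 30.3, 46.4 and 32.6 with ethanol and listed at 0 in all 3 A34 libraries (limma adjusted p = 0.292); near-identical tubulin copies make its counting uncertain. MT-RNR2, mitochondrial ribosomal RNA, was at 19787 in ethanol replicate 2, the 1 of these 6 libraries rich in ribosomal RNA, against 19.6 to 1668 in the other 5.

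Lists of growth and of the cell cycle gave no call. None of 17 S phase genes passed the limma test, and their median log2 fold change was -0.13. Of these, 2 were lower at an unadjusted p under 0.05, 16 were below 0 and 7 had groups apart and lower. Over all genes tested these shares were 4.81%, 50.6% and 8.36%. Over that list A34 replicate 1 stood at -0.23 from the ethanol mean, replicate 2 at -0.12 and replicate 3 at -0.05, the reverse of the hypoxia order. MCM2, a helicase subunit of DNA replication, was at 53.5, 52.3 and 54.6 scaled TPM with ethanol and 43.4, 51.8 and 53.1 with A34. Of 17 tested G2 and M phase genes, 0 passed and 0 reached an unadjusted p under 0.05 in either direction, with a median of -0.05. Of 15 tested p53 targets and 15 apoptosis genes, 0 passed in either list, with 0 and 1 higher and 1 lower in each at an unadjusted p under 0.05; both medians were -0.02. SPRY2 and SPRY4, feedback inhibitors of growth factor signalling, were lower with groups apart, at log2 differences of -0.44 and -0.41 (limma adjusted p = 0.179 and 0.146). HGF, hepatocyte growth factor, was at 7.53, 8.20 and 8.18 with ethanol and 5.28, 4.95 and 5.09 with A34 (log2 difference -0.55, limma adjusted p = 0.0745). On the ERK feedback list 0 of 16 passed, with a median of -0.04. At an unadjusted limma p under 0.05, 1 was higher and 5 lower, against 5.9% and 4.81% of all genes.

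Markers of other cells and states did not pass either. Of 18 tested mesenchymal genes, 0 passed the limma test. At an unadjusted p under 0.05, 2 were higher and 4 lower, against 5.9% and 4.81% of all genes. The list's median was 0.04, and ran from -0.11 without A34 replicate 1 to 0.18 without A34 replicate 3. Fibronectin (FN1) was at 412, 270 and 271 scaled TPM with ethanol and 482, 305 and 203 with A34. The summed level of 11 neuronal markers was 229 to 233 with ethanol and 258 to 377 with A34, most of it from ENO2, a glycolytic enzyme that was at 114 to 124 with ethanol and 150 to 267 with A34. ENO2 was named after its values were seen. The sum of 9 microglial and leukocyte markers was 160 to 185 with ethanol and 202 to 211 with A34, nearly all of it CD68, a lysosomal protein. CD68 was at 143, 173 and 166 with ethanol and 185, 193 and 199 with A34, a log2 difference of 0.26 (limma adjusted p = 0.474). The part of these levels in the results above was not tested.

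A34 was also set directly against each other rexinoid at the same dose and time, 4 pairs in all. Against bexarotene, a rexinoid used as a drug, and against A80, 0 genes passed the limma test in either direction (0%), with 950 and 648 genes at an unadjusted p under 0.05. Against A98, 1 gene passed, lower with A34 (0.00547% of genes tested); A98 is the labelled name, while the tables deposited for these libraries are named A90. Against A41, 13 genes passed, all lower with A34 (0.0712%). In A41 replicate 2 ribosomal RNA took 56.1% of TPM, and fewer genes passed without the libraries rich in it, as given at the end. With p-values adjusted over the 4 pairs together, 7 genes remained past the threshold against A41 and 1 against A98. A difference that did not pass does not show that the compounds act alike.

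**Figure D5:**
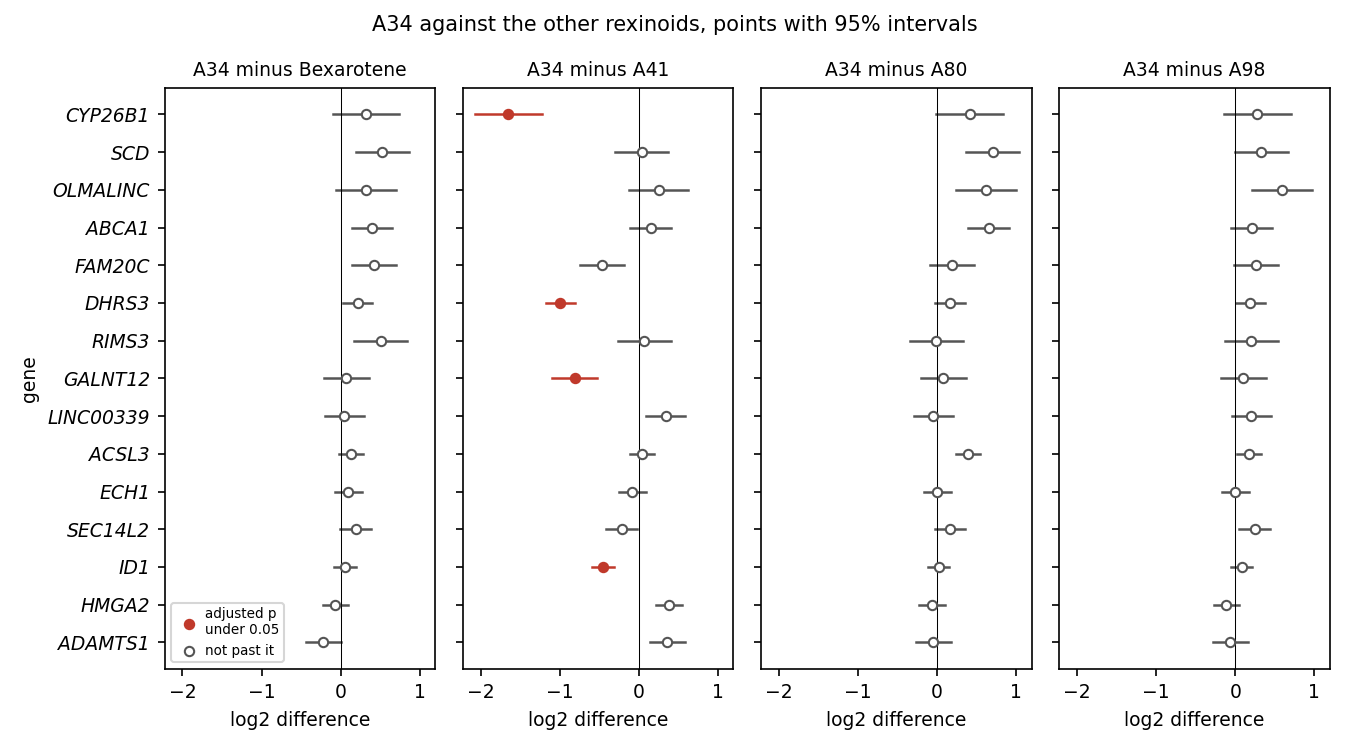
Log2 difference of A34 minus each other rexinoid, 1 panel per rexinoid, for the 15 genes called against ethanol, with 95% intervals from limma and filled red points where the adjusted p was under 0.05. Only the A41 panel holds red points (CYP26B1, DHRS3, GALNT12 and ID1), all to the left of 0. The same A34 libraries served to choose the genes shown.

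Several retinoid genes were lower with A34 than with A41. CYP26B1 stood at 24.7, 17.4 and 13.1 scaled TPM with A34 and at 67.9, 54.8 and 52.3 with A41, a log2 difference of -1.65 (-2.07 to -1.23, limma adjusted p over the 4 pairs = 0.0076). DHRS3 stood at 80.1, 73.4 and 80.4 with A34 and at 160, 146 and 162 with A41, a log2 difference of -0.99 (-1.18 to -0.81, adjusted p over the 4 pairs = 0.000416). STRA6 stood at 2.40, 2.54 and 1.32 with A34 and at 9.55, 7.01 and 7.50 with A41, a log2 difference of -1.56 (adjusted p over the 4 pairs = 0.0253). For all 3 genes every A41 library was above every A34 library. TGM2 and PTGES were lower with A34 by the same test, at log2 differences of -0.70 and -1.43 (adjusted p over the 4 pairs = 0.0076 and 0.00535), as was ID1, at -0.46 (0.0315). GALNT12 passed within the pair (-0.81, limma adjusted p = 0.0319) but not over the 4 pairs (0.108). LINC02551, a long noncoding RNA gene listed at 0 in all 3 A34 libraries, was at 3.96, 2.78 and 2.23 with A41. It likewise passed within the pair (limma adjusted p = 0.0319) but not over the 4 pairs (0.108). Since 3 libraries of at least 1 TPM suffice for testing, such a gene can enter the test through the A41 libraries alone.

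None of the called lipid genes passed between A34 and A41. SCD had a log2 difference of 0.03 (95% interval -0.30 to 0.37) between A34 and A41, ABCA1 of 0.15 (-0.11 to 0.40), ACSL3 of 0.04 (-0.11 to 0.19) and OLMALINC of 0.25 (-0.13 to 0.62). FAM20C had a log2 difference of -0.47 (-0.75 to -0.19), which did not pass over all genes (limma adjusted p = 0.362). Against A80 these intervals lay above 0 for SCD (0.37 to 1.04), ABCA1 (0.39 to 0.91), ACSL3 (0.24 to 0.54) and OLMALINC (0.25 to 1.00), but no adjusted p was under 0.616. ABCA1 stood at 77.5, 69.6 and 53.5 scaled TPM with A34 and at 47.7, 41.3 and 36.8 with A80, so all A34 libraries were higher. Against bexarotene the intervals lay above 0 for SCD (0.19 to 0.86), ABCA1 (0.14 to 0.65), FAM20C (0.14 to 0.69), RIMS3 (0.17 to 0.84) and DHRS3 (0.03 to 0.40), with a limma adjusted p of 0.914 for each. All these genes were chosen because their A34 libraries stood above ethanol, and the same A34 libraries enter here. That choice favours intervals above 0 against A80 and bexarotene, so they are no separate support for a difference. Against A98 the 1 call was SNORA70G, a small nucleolar RNA gene. It was listed at 0 in the A34 libraries and at 1.36, 1.90 and 1.37 with A98, a level near the minimum for testing. Its log2 difference was -1.34 (limma adjusted p over the 4 pairs = 0.015). Such a gene can enter the test through the A98 libraries alone. Over the hypoxia list the median difference of A34 was 0.44 from bexarotene, 0.58 from A41, 0.23 from A98 and -6.25e-05 from A80, with 0 of 23 genes passing the limma test in any of the 4 pairs.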

How the data were processed

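The submitters' processing notes name STAR, StringTie, MultiQC and build GRCh38. Tool versions, annotation release and strand setting were not given in the sources used here. Whether reads of a gene and its antisense partner were kept apart is therefore unknown. Per the file headers, the authors deposited TPM, FPKM and Coverage (a signal: mean read depth over a gene) for 60675 gene IDs in each library, with no counts. Entries repeating an ID were summed, and TPM was divided by median-of-ratios factors from 16349 genes above 0 in every library. Genes of at least 1 TPM in at least 3 of 18 libraries were tested with limma 3.58.1 in R 4.3.3 on log2(scaled TPM + 1), a scale that understates changes of low genes, with 6 groups in 1 model (12 residual degrees of freedom), trended moderation and two-sided tests. Adjusted p-values are Benjamini-Hochberg over the genes tested. Intervals are 95% and unadjusted. Coordinates of genes are those of the deposited tables.

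Members and lists were chosen with earlier results of these data known. The text names genes past the threshold, a panel of receptors and targets, the first 3 tested members of each list, and genes of the highest and lowest change with groups apart, at least 2 scaled TPM and a span of at least 300 bases. Promoter windows are from RefSeq. The fit was tested on simulated data.

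Alternatives changed the libraries fitted, pseudocount, filter, scaling, unit, prior and weights, left out libraries or added a replicate block. The main fit used no block, since the study's description names none. Over all genes, same-numbered A34 and ethanol libraries had low correlations, while some with A41 and A80 were higher, as given below. Figures were drawn with matplotlib.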

Additional observations from a re-analysis of the deposited data

How the results depend on the processing

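Of the 15 genes called against ethanol, 7 (ABCA1, ACSL3, CYP26B1, DHRS3, FAM20C, OLMALINC and SCD) stayed past the threshold without any 1 of the 6 libraries; leaving out 1 library gave 8 to 18 calls in all, and without A34 replicate 1 there were 10. With only the 2 groups in the fit 1 gene passed, and with TPM as deposited 0. Leaving ribosomal RNA and mitochondrial genes out of TPM gave 7, not the same 7 (ACSL3 was lost and ADAMTS1 kept), and moved the median of all genes to -0.12 from -0.0023. Gene values under the scalings are relative to that shift. Without the libraries rich in ribosomal RNA 10 genes passed, with 8 of the 15 among them. ADAMTS1, ECH1, GALNT12, HMGA2, LINC00339, RIMS3 and SEC14L2 were lost there, at limma adjusted p from 0.0545 to 0.171. Array weights gave 89 and the replicate block from the titles 166 (147 higher, 19 lower, all 15 among them), while a replicate block from the file numbers gave 57, with 12 of the 15 among them (ADAMTS1, HMGA2 and SEC14L2 were lost, at adjusted p of 0.0604, 0.0646 and 0.0768). The block from the titles also called 11 of 23 hypoxia, 4 of 16 NF-kB, 4 of 22 ATF4 and 6 of 14 RAR target genes, all higher. Over all 18269 genes tested it called 147 higher. It called 0 of 22 nuclear receptor, 0 of 17 S phase and 0 of 17 G2 and M phase genes in either direction. The correlation of same-numbered A34 and ethanol deviations was 0.05, 0.06 and -0.01, and 2 of 3 libraries matched best with their own number. With A41 the same-numbered correlations were 0.23, 0.01 and 0.03, and with A80 0.15, 0.0057 and 0.13. With bexarotene they were -0.01, 0.04 and -0.01, and with A98 0.02, -0.04 and 0.01. The main fit had no block because the study's description names none, and an effect shared by replicate number was not tested. The cause of these shifts in count was not tested.

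Against bexarotene the count of 0 became 6 with no filter on level, 1 without the libraries rich in ribosomal RNA, and 0 to 1 leaving out single libraries. Against A41 the count of 13 became 0 with TPM as deposited, 29 with the replicate block from the titles, 6 without the libraries rich in ribosomal RNA and 5 to 13 leaving out single libraries. Against A80 the count of 0 became 2 with no filter and 0 to 1 leaving out single libraries. Against A98 the count of 1 became 4 with no filter, 0 with a pseudocount of 0.1, with TPM as deposited, with the replicate block or without the libraries rich in ribosomal RNA, and 0 to 2 leaving out single libraries.

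None of the called genes changed direction under any alternative run. Among genes that did not pass, LUM turned to -0.077 with array weights and to -0.076 when the libraries rich in ribosomal RNA were left out, and PPARG to 0.028 in that last fit. Leaving out single libraries turned DUSP5 (-0.13 to 0.21), FN1 (-0.32 to 0.30), IFI6 (-0.34 to 0.12), ISG15 (-0.31 to 0.26), LUM (-0.076 to 0.43), PLIN2 (-0.41 to 0.34), PPARG (-0.65 to 0.028), RXRB (-0.16 to 0.072), SNAP25 (-0.17 to 0.14) and TMEM119 (-0.55 to 0.10). In 85 further cases the sign turned as well, with no call in either fit and a shift of at most 1 standard error. With no counts deposited, the depth behind a single low value is unknown.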
